A study of Danio rerio with 6 samples.

Results

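Expression of 4 muscle genes, pygma, pfkmb, smyd1b and srl, was assessed in whole zebrafish larvae irradiated as embryos. Their functions lie in glycogen use, sarcomere assembly and, for srl, the sarcoplasmic reticulum. The members are the 4 targets, of 37157 on the array, whose RefSeq mRNA identifier carries 1 of these zebrafish symbols (NM_001020628 for pygma, NM_001089417 for pfkmb, NM_001039636 for smyd1b and NM_001077531 for srl). Wild-type embryos of the AB strain received 5 Gy from a Co-60 source at 26 hours post fertilization (hpf) in the 5 Gy treatment, and were mock irradiated (0 Gy) in the control treatment. Larvae of both treatments were collected at 120 hpf, with 3 pools of 50 larvae each, and 1 one-color array was run per pool. Each pool mixes all tissues of the larva, so a different number of muscle fibers and a different amount of RNA per fiber cannot be told apart in any value below.

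Skeletal muscle stores glucose as glycogen and breaks it down when it contracts. Glycogen phosphorylase releases glucose phosphate from the polymer, and phosphofructokinase commits the sugar to glycolysis, which yields ATP for contraction. Contraction itself depends on myosin that chaperones fold and load into ordered sarcomeres, and on calcium that is released from and taken back into the sarcoplasmic reticulum. The 4 genes cover these steps. The gene pygma encodes the muscle form of glycogen phosphorylase and pfkmb the muscle form of phosphofructokinase. The gene smyd1b encodes a SET and MYND domain methyltransferase that is required for myosin folding and thick filament assembly in zebrafish muscle. The gene srl encodes sarcalumenin, a calcium-binding glycoprotein of the lumen of the sarcoplasmic reticulum.

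The genes were chosen for their values in the comparison described here, so their differences between treatments are a description. The calls that chose them support nothing, here or in the closing section. A target was called altered when limma, which compares the treatment means of each target with a variance moderated over all targets, gave an unadjusted p under 0.05 and the log2 expression ratio of 5 Gy to control was at least 0.585 in size (1.5-fold). In limma without a term for the replicate number, pygma and smyd1b met both criteria, and pfkmb and srl did not. When that number was fitted as a block, pfkmb and srl met them, and smyd1b and pygma lay just outside. None of the 4 genes met both criteria in both fits. No target on the array reached a limma adjusted p under 0.05 without the block (smallest 0.0909). Of all targets, 4.04% were altered without the block (1.15% higher at 5 Gy and 2.89% lower) and 8.81% with the block (3.61% higher at 5 Gy and 5.19% lower).

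Expression of pygma was the only 1 of the 4 whose treatments did not overlap. Its log2 value was 12.65, 12.39 and 12.32 in 5 Gy replicates 1, 2 and 3, against 11.59, 11.77 and 12.002 in control replicates 1, 2 and 3. The highest control pool was replicate 3, and the lowest 5 Gy pool lay 0.32 above that pool. The means were 12.46 ± 0.17 at 5 Gy and 11.79 ± 0.21 in the control treatment (SD, n = 3 pools each), a log2 ratio of 0.67 (standard error 0.27, 1.59-fold). Complete separation with higher values at 5 Gy was seen for 2.78% of all targets, and with lower values for 4.70%. The ratio of pygma stayed between 0.57 and 0.78 when any 1 pool was left out.

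The phosphofructokinase gene pfkmb varied most among the irradiated pools. Its log2 value was 11.28, 11.94 and 10.52 in 5 Gy replicates 1, 2 and 3, against 10.09, 10.82 and 10.44 in control replicates 1, 2 and 3. The treatments overlapped, since 5 Gy replicate 3 lay below control replicate 2. The means were 11.25 ± 0.71 at 5 Gy and 10.45 ± 0.37 in the control treatment (SD, n = 3 each), a log2 ratio of 0.80 with a standard error of 0.41 without the block and 0.33 with the block. Replicate 2 was the highest pool of each treatment. The ratio rested in large part on 5 Gy replicate 2, and was 0.45 without that pool.

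Expression of smyd1b was nearly equal in the third pair of pools. Its log2 value was 12.33, 12.45 and 11.67 in 5 Gy replicates 1, 2 and 3, against 11.21, 11.24 and 11.68 in control replicates 1, 2 and 3. Replicates 1 and 2 differed clearly between treatments, whereas the replicate 3 pools of both treatments lay between them at the same level. The means were 12.15 ± 0.42 at 5 Gy and 11.38 ± 0.26 in the control treatment (SD, n = 3 each), a log2 ratio of 0.77 (standard error 0.32, 1.70-fold). It ranged from 0.62 without 5 Gy replicate 2 to 1.01 without 5 Gy replicate 3.

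The sarcalumenin gene srl had 1 control pool at the irradiated level. Its log2 value was 11.52, 10.93 and 11.37 in 5 Gy replicates 1, 2 and 3, against 9.81, 9.93 and 11.43 in control replicates 1, 2 and 3. Control replicate 3 lay 1.56 above the mean of the other control pools and also above 5 Gy replicates 2 and 3. The means were 11.27 ± 0.31 at 5 Gy and 10.39 ± 0.91 in the control treatment (SD, n = 3 each), a log2 ratio of 0.88 with a standard error of 0.46 without the block and 0.38 with the block. Without control replicate 3 the ratio was 1.40.

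**Figure D1:**
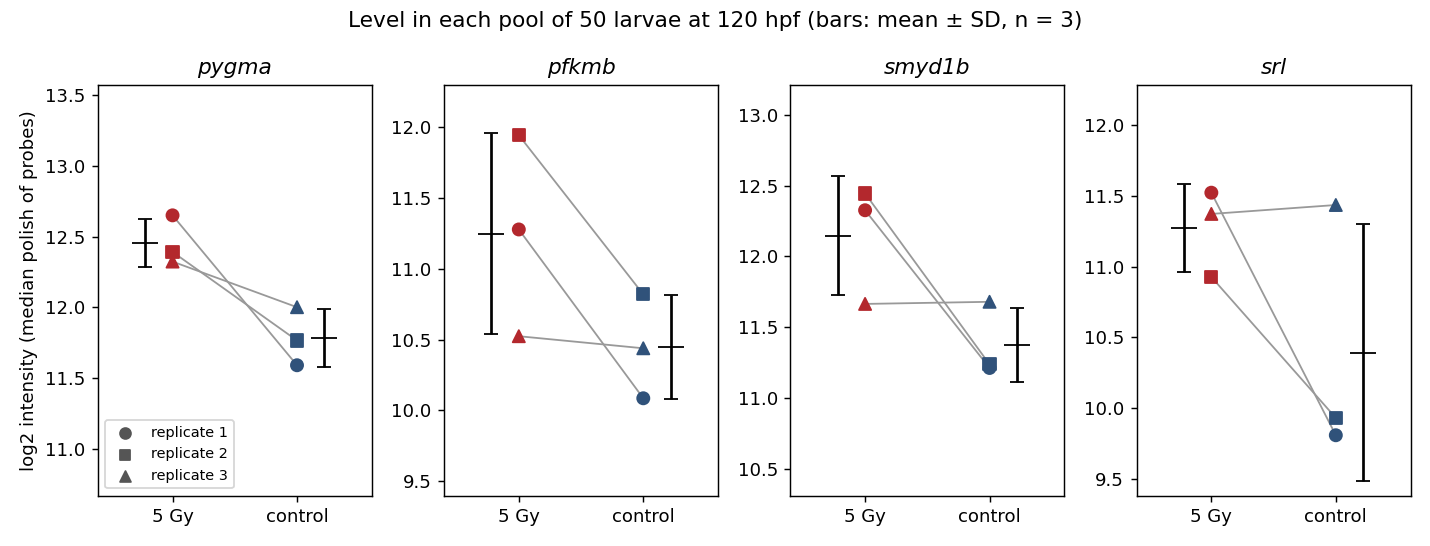
log2 intensity of pygma, pfkmb, smyd1b and srl in each pool (y axis, median polish of the probes of a target), with 5 Gy pools in red left of control pools in blue, gray lines joining pools of the same replicate number, and bars for the mean ± SD of 3 pools. The axes have the same span but different limits because levels of different targets are not comparable. The pools of pygma do not overlap, and the lines of replicate 3 (triangles) are nearly flat for pfkmb, smyd1b and srl.

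Most of the difference of all 4 genes came from replicate pairs 1 and 2. For pygma the 5 Gy pool exceeded the control pool of the same number by 1.06, 0.63 and 0.32 on the log2 scale in pairs 1, 2 and 3. The corresponding differences of pfkmb were 1.19, 1.12 and 0.09. For smyd1b they were 1.11, 1.21 and -0.015. For srl they were 1.71, 0.99 and -0.063. Thus pair 3 held the smallest difference of each gene, and among the 4 genes it was largest for pygma. The median difference over all targets was 0.025, -0.15 and 0.0019 in pairs 1, 2 and 3. A 5 Gy pool above its control pool in all 3 pairs, as seen for pygma and pfkmb, occurred for 12.9% of all targets, and a difference of at least 0.585 in both pairs 1 and 2, as seen for all 4 genes, for 7.05%. These shares are given as the background of genes that had been chosen on the same pools.

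**Figure D2:**
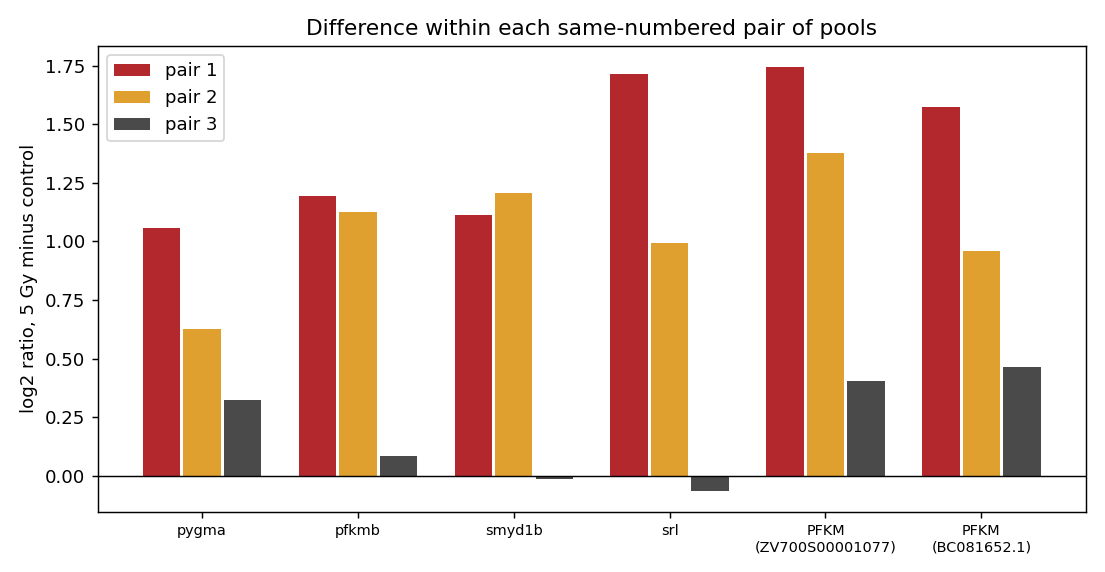
log2 ratio of 5 Gy to control within each pair of pools that share a replicate number (y axis) for the 4 genes and for 2 further targets that the study's tables name PFKM, with 1 bar per pair. In every group of bars pair 3 is the lowest, at -0.063 for srl and 0.46 for the PFKM target BC081652.1.

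Control replicate 3 and 5 Gy replicate 3 were also the closest pair of arrays overall (r = 0.987 across all targets), whereas control replicate 3 had r = 0.897 and 0.905 with control replicates 1 and 2. Across the 6 arrays the level of srl followed the first principal component of all targets most closely (r = 0.95), and smyd1b, pygma and pfkmb had r = 0.56, 0.69 and 0.22. The arrays also differed between low-numbered and high-numbered probes. The mean of the 3 lowest-numbered probes minus that of the 3 highest-numbered probes, as a median over 2896 RefSeq targets, was -0.12, -0.057 and 0.090 on the log2 scale in 5 Gy replicates 1, 2 and 3, against -0.43, -0.37 and 0.11 in control replicates 1, 2 and 3. The treatments differed in this measure in replicates 1 and 2 and hardly in replicate 3, as did the levels of pfkmb, smyd1b and srl. The same measure was taken on the probes of pygma, pfkmb, smyd1b and srl alone. In replicates 1 and 2 it was higher at 5 Gy for each gene, except for pfkmb in replicate 1 (0.27 at 5 Gy and 0.61 in control). In replicate 3 it was -1.34 at 5 Gy and -1.83 in control for smyd1b. The corresponding values were 0.19 and 0.42 for pfkmb, and -4.83 and -4.95 for srl. With the array measure over all these targets as a covariate, an analysis added after the values had been seen, the log2 ratio was 0.59 for pygma (standard error 0.30), 0.89 for pfkmb (0.46), 0.70 for smyd1b (0.36) and 0.34 for srl (0.35). The array measure itself differed between treatments, so this fit cannot separate it from irradiation. Its part in the levels of these genes was not tested.

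Single probes were examined next, because the deposited values are of probes and each target value combines 11 or 12 of them. All 12 probes of pygma had a higher mean at 5 Gy, with log2 ratios from 0.37 to 1.496, and on 8 of them every 5 Gy pool exceeded every control pool. The largest of these ratios, on the probe numbered 1151, rested on control replicate 3, which had an intensity of 2410 on that probe, against 10460 and 11095 in control replicates 1 and 2. The intensities of its 5 Gy pools were 21063, 18145 and 16419 in replicates 1, 2 and 3. Median polish limits the weight of such a probe, and the ratio of the pygma target was 0.73 when the mean of its probes was taken instead. Separation of the pools on a single probe, with higher values at 5 Gy, occurred for 3.04% of all probes on the array.

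All 12 probes of pfkmb had a higher mean at 5 Gy as well, with ratios from 0.34 to 1.197, but the treatments were separated on only 1 of them. In pair 3 the 5 Gy pool was the higher on 7 of 12 probes. The 12 probes of smyd1b had ratios from 0.42 to 1.48, with separation on 3, which were the 3 lowest-numbered. Its 6 lowest-numbered probes gave a ratio of 0.85 and its 6 highest-numbered probes 0.53, so the larger differences lay on the low-numbered probes. For pfkmb the corresponding ratios were 0.93 and 0.66, and for pygma 0.76 and 0.64. For srl the order was reversed, with 0.85 on the 6 lowest-numbered and 0.98 on the 6 highest-numbered of its 11 probes. Among targets with 12 probes, all 12 had a higher mean at 5 Gy in 4.18%.

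The probes of srl were unevenly numbered. Of its 11 probes, 10 carry numbers from 1 to 167 and the other is numbered 1505. What the number stands for is not defined in the file, so whether the 10 probes share sequence is not known here. The 10 probes had log2 ratios from 0.50 to 1.84. The probe numbered 1505 had a ratio of -0.10, with intensities of 13480, 8923 and 7513 in 5 Gy replicates 1, 2 and 3, against 10094, 11523 and 9605 in control replicates 1, 2 and 3. The treatments overlapped on this probe, and it did not share the low values of control replicates 1 and 2 seen on the others. In pair 1 all 11 probes were higher at 5 Gy, in pair 2 9 of 11 and in pair 3 7 of 11. On 10 of the 11 probes control replicate 3 was the highest control pool. Without the probe numbered 1505 the ratio of the srl target was 0.91.

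**Figure D3:**
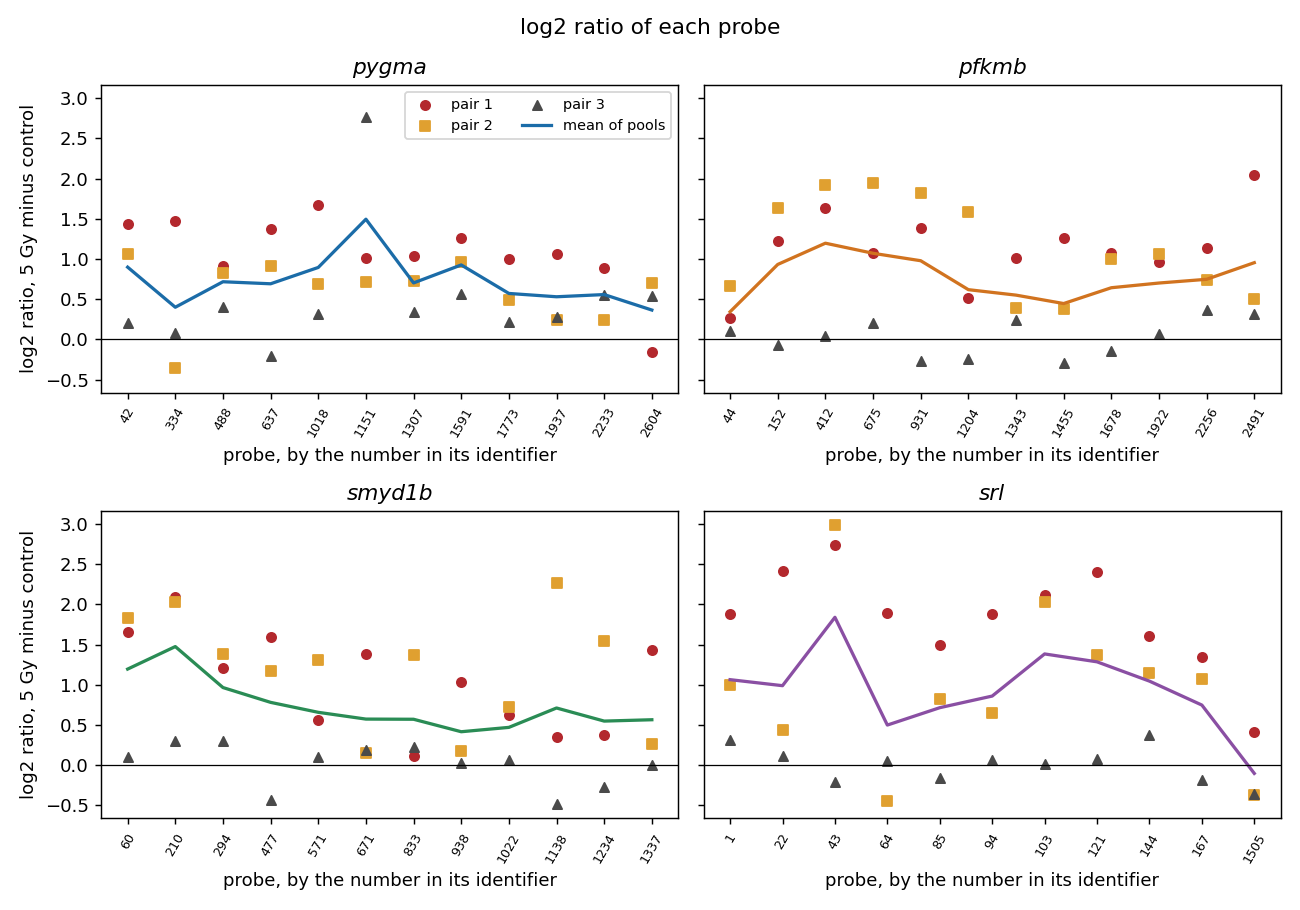
log2 ratio of 5 Gy to control (y axis) for each probe of pygma, pfkmb, smyd1b and srl, ordered by the number in the probe identifier (x axis, not to scale), with points for the 3 pairs of pools and a line for the ratio of the treatment means. The lines lie above 0 on all probes but the srl probe numbered 1505 (-0.10), and the largest pair 3 value belongs to the pygma probe numbered 1151.

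Relatives of the 4 genes were sought by symbol. None of pygmb, pygl, pygb, pfkma, pfkla, pfklb, pfkpa, pfkpb or smyd1a was among the 2663 targets with a zebrafish symbol. The study's tables give the human name PFKM to 2 further targets, and whether these measure pfkma or pfkmb is not annotated. The study selected both on the pools used here, and their direction therefore gives no independent evidence. The target BC081652.1 had log2 values of 12.74, 12.36 and 12.02 in 5 Gy replicates 1, 2 and 3, against 11.17, 11.41 and 11.56 in control replicates 1, 2 and 3. The target ZV700S00001077 had 12.39, 12.32 and 11.45 in 5 Gy replicates 1, 2 and 3, against 10.65, 10.95 and 11.05 in control replicates 1, 2 and 3. The treatments did not overlap on either target, and the log2 ratio was 1.00 (standard error 0.30) for BC081652.1 and 1.17 (standard error 0.34) for ZV700S00001077. The pfkmb target itself was separated from them by its replicate 3 pools, which differed by 0.09, against 0.46 and 0.40 on the PFKM targets. The 12 probes of ZV700S00001077 carry numbers from 29 to 117, and whether they share sequence is not known here.

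Likeness of the 4 genes to each other over the 6 pools was uneven. Pearson's r, used as a measure of likeness with no test, was 0.90 between pygma and smyd1b, 0.85 between pfkmb and smyd1b, 0.82 between pygma and srl, 0.68 between pygma and pfkmb, 0.68 between smyd1b and srl, and 0.30 between pfkmb and srl. All of these values share the same 6 arrays and the difference for which the genes were chosen. After the treatment means were removed, r was 0.79 between pygma and srl, 0.72 between pfkmb and smyd1b, 0.67 between pygma and smyd1b, 0.39 between smyd1b and srl, 0.28 between pygma and pfkmb, and -0.18 between pfkmb and srl. Among the other 2662 targets with a symbol, those most like pygma were mrpl20 (r = 0.994), a protein of the mitochondrial ribosome, adprhl1 (r = 0.980) and pou4f3 (r = 0.972), a transcription factor of hair cells. Those most like pfkmb were poc1a (r = 0.985), a centriole protein, zgc:153932 (r = 0.980) and mapk15 (r = 0.980), a protein kinase. For smyd1b they were the troponin I gene tnni4a (r = 0.989), b3galnt2 (r = 0.988), a glycosyltransferase that acts on dystroglycan, and egfl6 (r = 0.980). For srl they were tmem39a (r = 0.999), slc25a12 (r = 0.993), the mitochondrial carrier of aspartate and glutamate, and rtn4b (r = 0.992), a reticulon of the endoplasmic reticulum. An r over 0.9 was reached by 161 of these targets with srl, but by 34 with pygma, 23 with pfkmb and 35 with smyd1b.

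Other muscle genes were assessed through 5 lists drawn up by function, without the 4 genes. The lists named 343 genes in all, and besides the 4 genes 47 were measured under a zebrafish symbol. Of these 47 targets none was altered at 5 Gy by limma, against 4.04% of all targets. None had an unadjusted p under 0.05 in that fit. The count was 1 with the replicate block, the pyruvate dehydrogenase kinase gene pdk2b, against 8.81% of all targets, and 1 with the test of the methods, tnni4a, against 1.53% of all targets. The log2 ratio was above 0 for 36 of the 47, with a median of 0.16, against a median of -0.033 over all targets. The 47 targets share the same 6 arrays, so this is not a count of separate observations. All 3 5 Gy pools lay above all control pools for 8 of the 47 and below them for 1, against 2.78% and 4.70% of all targets. The smallest limma adjusted p among them was 0.905. Targets without a zebrafish symbol were not counted. From these same pools the study's tables list some of them under human muscle gene names. Those named MYBPC1, MYBPC3, MYOM3, DES and TCAP were higher at 5 Gy, and those named TTN and SPEG lower. The 47 themselves include a mybpc1 target, whose ratio was 0.086 (standard error 0.30) with overlapping treatments. The 47 targets therefore do not stand for all muscle genes on the array.

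The list of glycogen use and glycolysis was hardly covered, with 2 of 86 genes measured besides pygma and pfkmb. The log2 ratio was 0.019 (standard error 0.29) for phkg1a, a catalytic subunit of the kinase that activates glycogen phosphorylase, and -0.031 (standard error 0.28) for gck, the glucokinase that phosphorylates glucose in liver. Both genes had overlapping treatments.

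The list of sarcomere assembly and structure had 27 measured targets besides smyd1b, of which 20 had a ratio above 0, with a median of 0.079. The troponin I gene tnni4a came nearest to the criteria, with a log2 ratio of 0.67 (standard error 0.30) and the treatments not overlapping. Its values were 8.17, 8.28 and 7.74 in 5 Gy replicates 1, 2 and 3, against 7.25, 7.22 and 7.73 in control replicates 1, 2 and 3. Thus tnni4a, like smyd1b, had nearly equal pools in replicate 3. The ratio was 0.66 (standard error 0.34) for pdlim7, a PDZ and LIM domain protein of the actin cytoskeleton. The gene naca, whose muscle isoform binds Smyd1 in mouse, had a ratio of -0.24 (standard error 0.26), and acta1b, a skeletal muscle actin, 0.16 (standard error 0.26). Both were picked with their values already known. The myosin light chain gene mylpfb (0.058), the tropomyosin gene tpm2 (0.11) and the troponin C gene tnnc1b (0.051), also chosen afterwards, had ratios near 0. They do not stand for the list, whose ratios ran from -0.37 for smtnl1 to 0.67 for tnni4a. Another myosin light chain gene, myl13, had a ratio of 0.35. All 5 Gy pools lay above all control pools for 2 targets, tnni4a and myl13, and below them for 1, naca. The shares over all targets were 2.78% and 4.70%.

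The list of the sarcoplasmic reticulum and excitation-contraction coupling had 9 measured targets besides srl, of which 7 had a ratio above 0, with a median of 0.37. The ratio was 0.56 (standard error 0.27) for cavin4b, a caveolar coat protein of muscle, and 0.62 (standard error 0.31) for stac3, which couples the voltage sensor of the muscle membrane to calcium release. In both genes all 5 Gy pools exceeded all control pools. The calsequestrin genes, whose products bind calcium in the same compartment as sarcalumenin, were chosen for mention after their values were seen. The gene casq1b had log2 values of 13.11, 12.84 and 12.72 in 5 Gy replicates 1, 2 and 3, against 12.34, 12.54 and 12.28 in control replicates 1, 2 and 3, and a ratio of 0.50 (standard error 0.27). These treatments did not overlap, and control replicate 3 was the lowest control pool for casq1b and the highest for srl. Its relative casq1a had a ratio of -0.14 (standard error 0.54). In this list all 5 Gy pools lay above all control pools for 3 of 9 targets and below them for 0. The shares over all targets were 2.78% and 4.70%.

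Among 6 myogenic regulators the median ratio was 0.58. The ratio was 0.71 (standard error 0.35) for meox1, a homeobox factor of the somites. It was 0.67 (standard error 0.33) for mef2ca, a transcription factor of muscle differentiation. The treatments of both were separated. All 5 Gy pools lay above all control pools for 3 of the 6 regulators and below them for 0. The shares over all targets were 2.78% and 4.70%. Of 3 genes of muscle energy supply, gpd1a, a glycerol phosphate dehydrogenase, had a ratio of 0.41 (standard error 0.34). The kinase gene pdk2b, whose product inhibits the pyruvate dehydrogenase complex, had a ratio of 1.95 (standard error 0.96). Its log2 values were 11.68, 10.97 and 10.83 in 5 Gy replicates 1, 2 and 3, against 11.77, 8.35 and 7.52 in control replicates 1, 2 and 3. Control replicate 1 was the highest pool of all, so the difference of pdk2b lay in pairs 2 and 3, unlike that of the 4 genes.

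**Figure D4:**
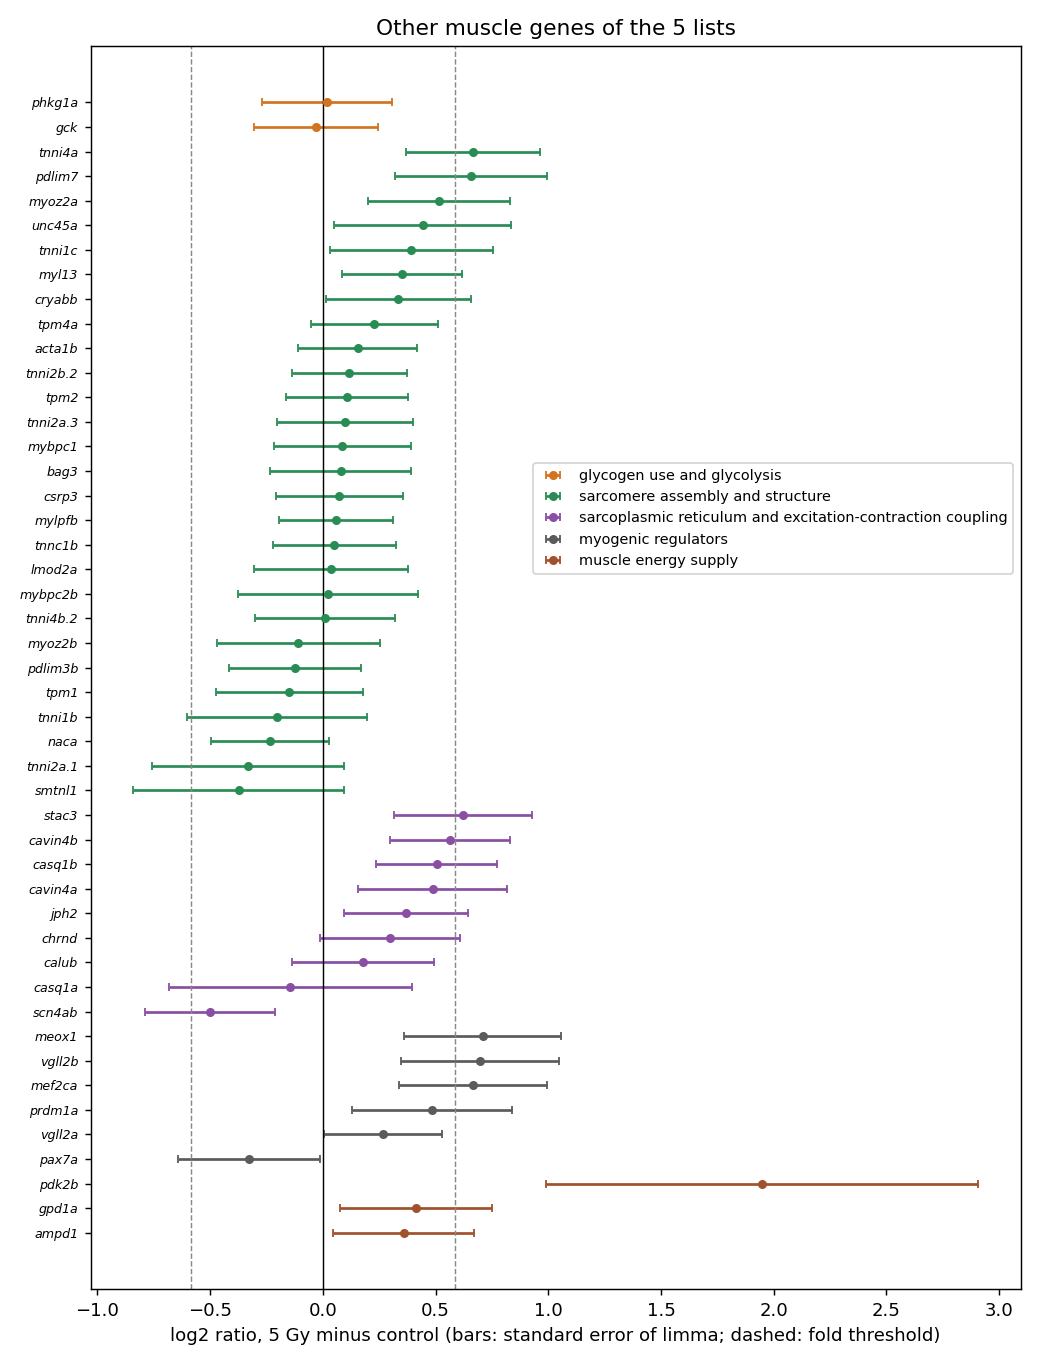
log2 ratio of 5 Gy to control (x axis, points, with bars for the standard error of limma) for the 47 other muscle targets, grouped by list and sorted within it, with dashed lines at the fold criterion of 0.585. No target met both criteria, and 36 of 47 points lie right of 0.

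Marker genes of tissues in the larva gave little further coverage. Of 22 skeletal muscle markers only acta1b was measured under a symbol, with a log2 value of 15.21 to 15.43 at 5 Gy and 14.97 to 15.34 in the control treatment, so the muscle content of the pools could not be assessed from defining markers. The summed intensity of the 47 muscle targets was 257921 to 271662 at 5 Gy and 236469 to 240549 in the control treatment. Such linear sums weigh the brightest targets most, here for example mylpfb and acta1b, and are not a measure of muscle content. None of 3 heart and none of 3 smooth muscle markers was altered (of 18 and 10 listed), against 4.04% of all targets. With so few markers this says little. All 5 Gy pools lay above all control pools for 1 smooth muscle marker, myl9a, against 2.78% of all targets. Of 4 measured neuronal markers (of 20 listed) 2 fell, slc17a6a and slc6a5, against 2.89% of all targets, and the summed intensity was 2956 to 6871 at 5 Gy and 6764 to 7896 in the control treatment. Of 7 lens markers (of 17 listed) 2 rose, crygm2d4 and crygm2d17, against 1.15% of all targets, with sums of 131061 to 160309 at 5 Gy and 133361 to 142189 in the control treatment. The limma adjusted p of these 4 altered markers was 0.905, and no liver marker (of 13 listed) was measured. The part of these tissues in the values of the 4 genes was not tested.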

How the data were processed

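The authors scanned one-color NimbleGen zebrafish arrays, extracted the signal with NimbleScan and quantile normalized it. The deposited values are linear intensities of 385000 single probes on 6 arrays. RMA is named in the submitters' processing notes, but no step that combines probes is included in these values, and background correction is not stated. All 6 value columns were used. Median probe intensity was 355 to 357 on every array and the lowest value was 16.38. The target is the probe identifier without its final number. The file does not define that number, which was used only to order probes. Median polish of log2 intensities (tolerance 0.01, up to 10 iterations) gave 1 value per array for each of 37157 targets. Of 3055 RefSeq mRNA targets, 2663 had a zebrafish symbol. The treatment contrast was fitted in limma 3.58.1 (lmFit and eBayes, R 4.3.3) over all targets with Benjamini-Hochberg adjustment. Standard errors are those of that fit. The scripts were tested on simulated data. The number of arrays limits the precision.

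The 4 genes and all lists were chosen with earlier results of these data known. Genes named by rule were the 4 members, their relatives, from each list up to 4 altered genes (where none was altered, the 2 of smallest p), and the 3 targets most like each member. Replicates came from separate clutches, and the sources do not say whether pools of 1 number share a clutch. After treatment means were removed, same-numbered pools correlated at 0.150, 0.239 and 0.497 for numbers 1, 2 and 3, so the number was also fitted as a block. The alternatives tried changed the normalization (quantile again, or centring on the median), the probe summary (mean or median), the filter (dimmest 25% of targets removed) and the model (block, trended eBayes, array weights, or the plain test named in the study, unpaired and paired), or left out 1 pool. Neither probe nor protein sequences were used here.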

Additional observations from a re-analysis of the deposited data

How the results depend on the processing

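Of all targets, 1500 were altered by limma. The count was 3272 with the replicate number as a block, 10913 with array weights, 569 by the test of the methods, 341 in its paired form, 800 with the array slope as a covariate (added after seeing the data), and 308 (without control replicate 1) to 7126 (without control replicate 3) when 1 pool was left out. Control replicate 2 gave 310 when left out, 5 Gy replicate 2 gave 895 and 5 Gy replicate 3 gave 1536. Median centring gave 1449, the mean of probes 1434 and the median of probes 1461. Each muscle count that follows is to be read beside the count over all 37157 targets in the same setting. Of the 47 other muscle targets 0 were altered, and 1 with the replicate block (pdk2b), 2 with median centring (tnni4a and cavin4b), 1 with the mean or the median of probes (pdk2b), 8 with array weights (6 higher and 2 lower), 1 by the test of the methods (tnni4a), 1 with the array slope (pdk2b), and 0 (without control replicate 2) to 4 (without 5 Gy replicate 3) with 1 pool left out. The log2 ratios of pygma, pfkmb, smyd1b and srl were above 0 in all settings run. The block leaves a ratio as it is (0.67, 0.80, 0.77 and 0.88) and changes its standard error. The ratio of pfkmb was 0.31 with array weights, 0.45 without 5 Gy replicate 2 and 1.16 without 5 Gy replicate 3. The ratio of srl was 1.35 with array weights, 1.40 without control replicate 3, 0.59 without control replicate 1 and 0.34 with the array slope. That of smyd1b was 0.53 on its 6 highest-numbered probes. The criteria that chose the 4 genes were met by pygma and smyd1b in limma and also with median centring, repeated quantile normalization, trended eBayes, the mean of probes or the dimmest targets left out. They were met by pfkmb and srl with the block. With array weights or without control replicate 3 they were met by pygma, smyd1b and srl. Without 5 Gy replicate 3 they were met by pfkmb and smyd1b. The study's own tables list the targets of pygma and smyd1b as altered, but not those of pfkmb and srl. In the test of the methods as run here, the criteria were met by pygma alone. None of the 4 met them in the paired form of that test, with the median of probes or the array slope, or without control replicate 1, control replicate 2, 5 Gy replicate 1 or 5 Gy replicate 2. The cause of these changes was not tested.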
